A study of Mus musculus with 16 samples.

Results

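The genes described here are 10 that are widely used to recognise fibroblasts or to follow their activation: THY1, PDGFRA, PDGFRB, VIM, FAP, S100A4, DCN, LUM, FN1 and POSTN. A row was taken for a gene where the symbol in the table was the same as the gene's name, and 9 of the 10 genes, out of 18132 genes in the whole table, had such a row. FN1 was not analysed here. The genes were chosen by their names, with no threshold on a measured value, but with earlier results of these arrays in view, log2 differences between treatments and genotypes included. Their tests therefore describe these 9 genes and are no independent evidence about fibroblast markers as a class.

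The values come from 16 Illumina Mouse 8 arrays, 1 for each culture of primary fibroblasts grown from the inguinal mammary glands of female 129S6 mice 8 to 10 weeks old. The mice were either MEKK1+/+, which the labels call WT, or MEKK1-/-, lacking the MAP3K kinase MEKK1 that Map3k1 encodes. All cultures were kept in DMEM with fetal bovine serum, and for 8 h they either stayed in that medium (untreated) or received the same medium after it had been conditioned by MDA-MB-231 human breast cancer cells (conditioned medium, CM). There are thus 4 groups of 4 arrays, numbered as replicates 1 to 4 in each group. The study's methods give 3 mice per genotype and do not tie cultures to mice. With 4 cultures in each group, some cultures of a group must then share a mouse. The p-values therefore measure the spread between cultures, which may in part be technical. They do not measure a spread between 4 independent mice. The deletion is carried by the whole animal, not by fibroblasts alone.

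Fibroblasts are the cells that lay down and remodel the fibrous matrix of connective tissue, and no single gene marks all of them. They carry surface proteins such as THY1 and the PDGF receptors, fill their cytoskeleton with vimentin, and secrete small leucine-rich proteoglycans such as decorin and lumican that coat collagen fibrils. PDGF ligands drive their growth and migration through 2 receptor tyrosine kinases, PDGFRA and PDGFRB. In breast tumours, activated fibroblasts are often recognised by fibroblast activation protein (FAP), S100A4, fibronectin and periostin. All of these are population markers that other mesenchymal cells can carry as well.

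Values are given as normalized log2 intensity, after the deposited intensities were put on a log2 scale and given the same distribution on every array. A level of 1 unit more is a doubling of signal. Each gene was read by its own probe, so levels are compared between groups of arrays for a gene and not between genes. As a measure of background, the 99th percentile of 1075 olfactory receptor genes, which fibroblasts are not known to use, was taken on each array and lay between 7.20 and 7.34 on this scale. On all 16 arrays 7 of the 9 genes were above it. The exceptions were LUM and POSTN, which did not exceed it on every array. The correlation of log2 values between arrays of a group was 0.978 to 0.996. The fibroblast label was borne out only as far as these genes go, since THY1, PDGFRA, PDGFRB, VIM and DCN were well above background on every array, while LUM and POSTN were not. However, the arrays also carried signal of macrophage genes and of pericyte and smooth muscle genes, and both MEKK1-/- replicate 1 arrays that of epithelial genes. These signals are given with the comparisons between genotypes. MAP3K1 itself did not check the genotype labels. Its level was 7.71 ± 0.19 (SD, n = 4) in MEKK1+/+ and 8.24 ± 0.15 in MEKK1-/- untreated cultures, and the part of the transcript its probe reads is not given in the sources used here.

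To show where the clearest response sits in the genome, the sequence before the transcription start of Pdgfra is printed beside that of Vim, which did not pass the test. Both are reference sequence from RefSeq on build GRCm38.p6, the 250 bases 5′ of an annotated start on the plus strand, at chr5:75152001-75152250 for Pdgfra and chr2:13574061-13574310 for Vim. Promoters of 4 of the 10 genes were found in the table of promoters used. Capitals mark matches on either strand to 5 short motifs: the AP-1 site TGANTCA, the CCAAT box CCAAT, the GC box GGGCGG, the TATA box TATAAA, and the NF-kappaB site.
Pdgfra: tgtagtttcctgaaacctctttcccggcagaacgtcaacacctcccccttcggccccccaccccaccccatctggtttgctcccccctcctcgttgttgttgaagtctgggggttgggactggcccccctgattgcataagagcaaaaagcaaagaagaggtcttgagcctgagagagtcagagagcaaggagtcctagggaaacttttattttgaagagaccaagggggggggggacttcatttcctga
Vim: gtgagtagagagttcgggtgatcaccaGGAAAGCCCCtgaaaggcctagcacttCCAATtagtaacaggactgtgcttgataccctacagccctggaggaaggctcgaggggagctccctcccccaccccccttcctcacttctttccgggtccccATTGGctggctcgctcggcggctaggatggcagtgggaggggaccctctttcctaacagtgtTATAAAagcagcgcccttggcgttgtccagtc
The Pdgfra window held 0 matches to any of the 5 motifs. The Vim window held 1 match to the NF-kappaB motif, 2 to the CCAAT box, of which one is read on the opposite strand, and 1 to the TATA box 32 bases before the start, none of them overlapping. Over 32851 promoter windows of the same length, 3.9% held the NF-kappaB motif, 6.75% the AP-1 motif, 12.4% the TATA box, 32.7% the GC box and 33.8% the CCAAT box. A match is a run of letters and not a measured binding site, and its absence says nothing of the factors.

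The first comparison asked which of the fibroblast genes changed when tumour cell medium was added to MEKK1+/+ or MEKK1-/- cultures. PDGFRA rose in both genotypes, by 1.94-fold in MEKK1+/+ and 2.00-fold in MEKK1-/- cultures, and was the only one of the 9 genes past the threshold in either. In MEKK1+/+ cells 1 of the 9 genes passed, where 5.01% of all 18132 genes did, and 2.27% did so in the upward direction. In MEKK1-/- cells 1 of the 9 passed, where 4.69% of all genes did, with 2.18% upward. At an unadjusted p under 0.05 by limma there were 2 and 4 of the 9 genes, where 16.8% and 16.2% of all genes lay under it. The differences of the 9 genes ran from -0.33 to 0.95 on the log2 scale in MEKK1+/+ and from -0.32 to 1.00 in MEKK1-/- cells, and their medians were 0.04 and 0.01, beside medians of -0.002 and -0.004 over all genes. With 9 genes, 1 call is close to the share among all genes.

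**Figure D1:**
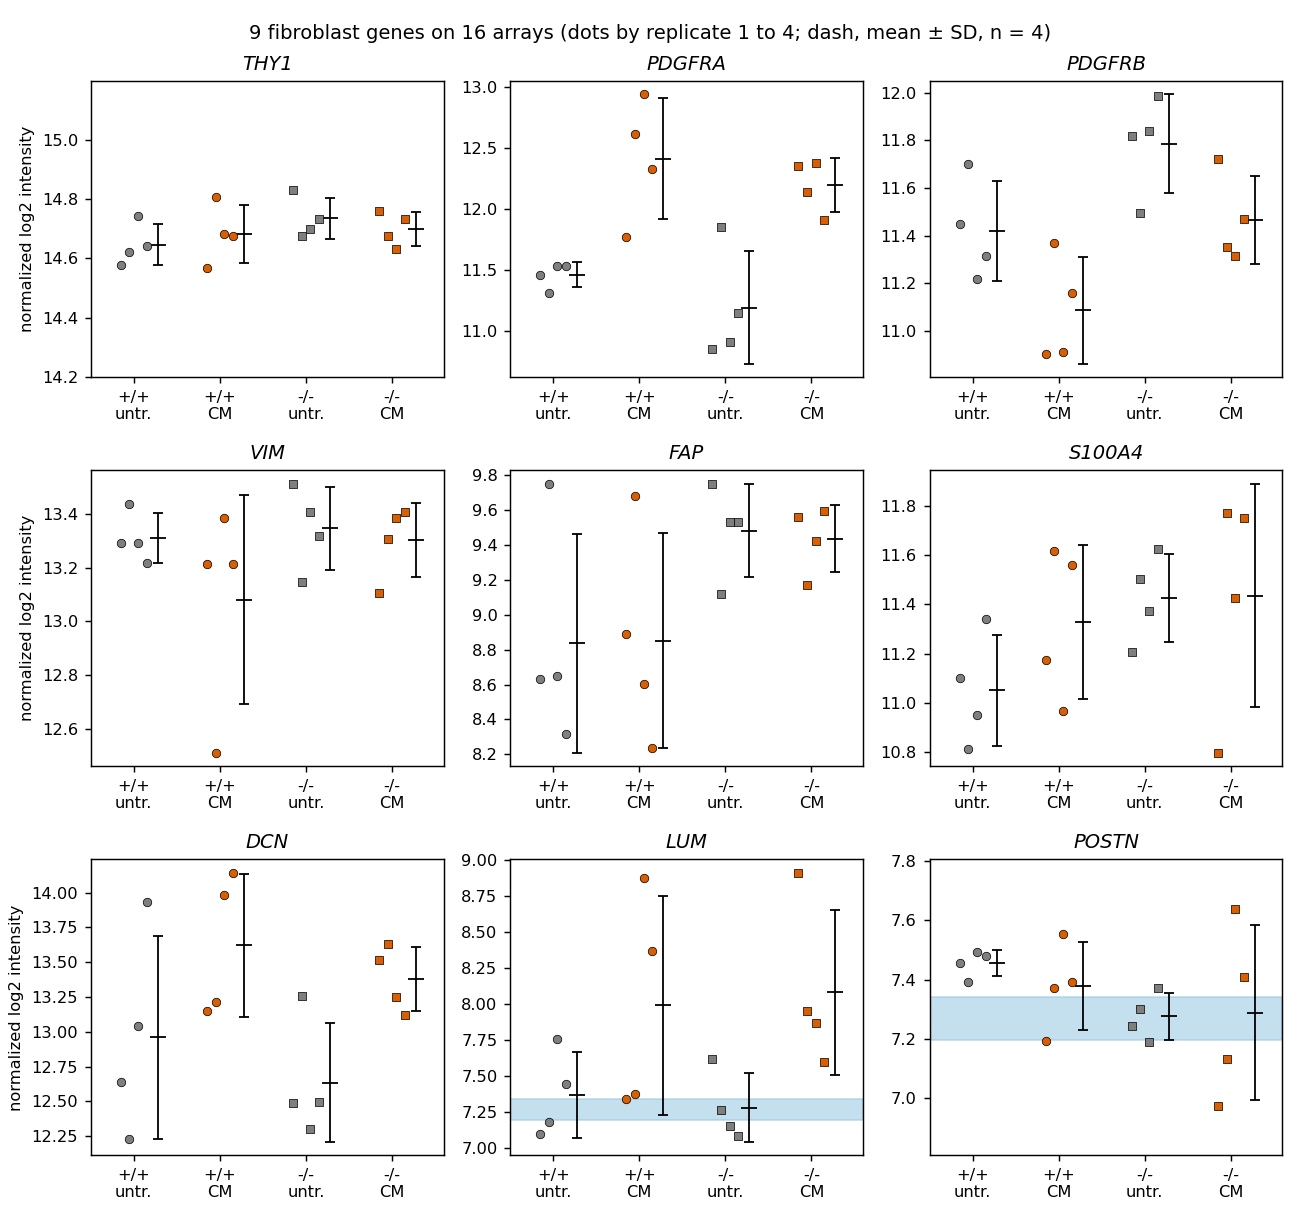
Normalized log2 intensity of the 9 fibroblast genes on 16 arrays. Circles are MEKK1+/+ and squares MEKK1-/- cultures, grey untreated and orange CM, with replicates 1 to 4 from left to right in each group, and the dash and bar beside them are the mean ± SD (n = 4). Each panel has its own scale and the blue band is the range of the background level, 7.20 to 7.34. PDGFRA is higher with CM without overlap in both genotypes, and some LUM and POSTN arrays lie in or below the background band.

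PDGFRA, the receptor for PDGF-AA and other PDGF dimers, read 11.46, 11.32, 11.54 and 11.53 on the untreated MEKK1+/+ arrays and 11.77, 12.62, 12.94 and 12.33 with CM. The MEKK1-/- arrays read 10.85, 11.86, 10.92 and 11.15 untreated and 12.36, 12.14, 12.38 and 11.91 with CM. All CM arrays were above all untreated arrays of their genotype, although the margin was narrow: the lowest CM array of the MEKK1+/+ group stood 0.24 above the highest untreated one, and the gap was 0.05 in MEKK1-/- cultures, where untreated replicate 2 was high. A lack of overlap was seen for 9.7% of all genes in MEKK1+/+ and 10.4% in MEKK1-/- cells.

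The PDGFRA difference was 0.95 ± 0.23 (SE, 95% interval 0.46 to 1.44; limma adjusted p = 0.0256) in MEKK1+/+ cells and 1.00 ± 0.23 (0.51 to 1.49; limma adjusted p = 0.0204) in MEKK1-/- cells. The exact permutation test, 2-sided with 4 arrays against 4, gave p = 0.0286 in each genotype, the smallest it can give. Both calls depended on how arrays were scaled. In MEKK1+/+ cells the difference was 0.51 (limma adjusted p = 0.186) on the values as deposited, where the median gene fell by 0.28, and in MEKK1-/- cells it was 0.92 (adjusted p = 0.437). Leaving out single arrays ended the call in MEKK1+/+ cells without untreated replicate 1, 2 or 3 or CM replicate 2, 3 or 4, and in MEKK1-/- cells without untreated replicate 1, 3 or 4 or CM replicate 3, while the difference stayed between 0.78 and 1.23 in these and the other single-array omissions. In RNA from whole cultures, fewer cells of a type and less RNA per cell cannot be told apart, here and in all results that follow.

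PDGFRB, which binds PDGF-BB and PDGF-DD and is also carried by pericytes, differed in the other direction without passing the threshold. Its levels were 11.45, 11.70, 11.22 and 11.31 on the untreated MEKK1+/+ arrays and 10.90, 11.37, 10.91 and 11.16 with CM. In MEKK1-/- cultures they were 11.82, 11.50, 11.84 and 11.99 untreated and 11.72, 11.35, 11.31 and 11.47 with CM. The groups overlapped in both genotypes, with means 0.33 lower under CM in MEKK1+/+ (SE 0.14; limma adjusted p = 0.206) and 0.32 lower in MEKK1-/- cells (SE 0.14; limma adjusted p = 0.239). By the exact permutation test the p-values were 0.0857 and 0.0571. On the values as deposited the MEKK1+/+ difference was -0.76, and it did not pass there either. The CM array was the lower one for 4 of 4 replicate numbers in each genotype.

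Because both receptors are on every array, the log2 ratio of PDGFRA to PDGFRB within an array is not changed by a factor common to the whole array. Quantile normalization, which is no such factor, does move it. On the values as deposited it was -0.35 to 0.32 in untreated MEKK1+/+ cultures and 0.93 to 1.93 with CM. In MEKK1-/- cultures it was -1.02 to 0.34 untreated and 0.45 to 1.05 with CM. The mean of this within-array difference was 1.28 higher with CM in MEKK1+/+ and 1.32 higher in MEKK1-/- cultures, without overlap in either. After quantile normalization the ratio was -0.38 to 0.32 untreated and 0.87 to 2.03 with CM in MEKK1+/+, and -0.97 to 0.36 and 0.44 to 1.07 in MEKK1-/- cultures, again without overlap. The ratio was chosen after the values were seen and is a description, with no test. Since each receptor has its own probe, its zero point has no meaning.

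**Figure D2:**
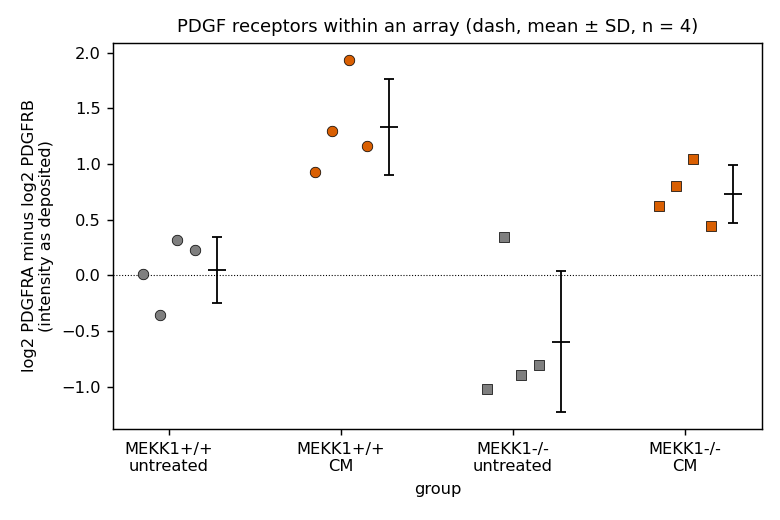
Log2 PDGFRA minus log2 PDGFRB on each of 16 arrays, from intensities as deposited, by group (circles MEKK1+/+, squares MEKK1-/-, grey untreated, orange CM; dash and bar, mean ± SD, n = 4). Each CM array lies above each untreated array of its genotype, with untreated MEKK1-/- replicate 2 at 0.34 closest to the CM arrays.

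Among the genes that feed these receptors, none passed the threshold. The list held PDGFA, PDGFB, PDGFC, PDGFD and the receptor-like gene PDGFRL, and 0 of 5 passed in either genotype, with 0 and 1 at an unadjusted p under 0.05 in MEKK1+/+ and MEKK1-/- cells by limma. Medians of the list were 0.00 and 0.08 on the log2 scale.

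DCN encodes decorin, which binds collagen fibrils and several growth factors, and LUM encodes lumican, its relative. DCN read 12.64, 12.23, 13.04 and 13.93 in untreated MEKK1+/+ cultures and 13.15, 13.21, 13.98 and 14.14 with CM. On the MEKK1-/- arrays DCN was at 12.49, 13.26, 12.30 and 12.49 untreated and 13.51, 13.63, 13.25 and 13.12 with CM. Cultures of a group differed widely, up to 1.71 in untreated MEKK1+/+ cells, and treated and untreated groups overlapped. The differences of 0.66 (SE 0.32; limma adjusted p = 0.325) and 0.74 (SE 0.32; adjusted p = 0.258) did not pass, and on the values as deposited the MEKK1+/+ difference was 0.24.

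LUM was at 7.10, 7.18, 7.76 and 7.45 in untreated MEKK1+/+ cultures and at 7.34, 7.38, 8.88 and 8.37 with CM. The MEKK1-/- levels were 7.62, 7.27, 7.16 and 7.08 untreated and 8.91, 7.95, 7.87 and 7.60 with CM. It was above background on 2 of 4 untreated and 4 of 4 CM arrays in each genotype. Its differences were 0.62 (SE 0.33; limma adjusted p = 0.373) and 0.80 (SE 0.33; adjusted p = 0.217), and neither passed. As deposited, the LUM difference in MEKK1+/+ cells was 0.37.

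Arrays of the same replicate number were compared for both proteoglycans. With CM, DCN was higher for 4 of 4 replicate numbers in MEKK1+/+ cultures, by 0.51, 0.99, 0.94 and 0.21, and for 4 of 4 in MEKK1-/- cultures, by 1.03, 0.37, 0.95 and 0.63. LUM was higher by 0.24, 0.20, 1.12 and 0.92 in MEKK1+/+ and by 1.29, 0.68, 0.71 and 0.52 in MEKK1-/- cultures. Across all genes, same-numbered MEKK1-/- arrays deviated together from their group means, with correlations of 0.22 to 0.51, so their numbers were taken as pairs. This pairing was read from the same expression values and is not given by the design. Only 2 of 4 numbers correlated best with themselves, in MEKK1-/- as in MEKK1+/+ cultures. The highest MEKK1-/- value, 0.51, was that of the replicate 1 arrays, which both carried epithelial signal. Calls made with a block within genotype, here and below, depend on this reading. With the replicate as a block within genotype, 3 of the 9 genes passed in MEKK1-/- cells in place of 1, namely PDGFRA, DCN (limma adjusted p = 0.0098) and LUM (limma adjusted p = 0.0157), where 7.93% of all genes passed, with 4.02% upward. In MEKK1+/+ cells the numbers did not pair the arrays by the same criterion. The fit blocked those arrays all the same and used a single estimate of spread for both genotypes. The p-values of this block in MEKK1-/- cells, here and below, therefore rest in part on numbers not taken as pairs.

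**Figure D3:**
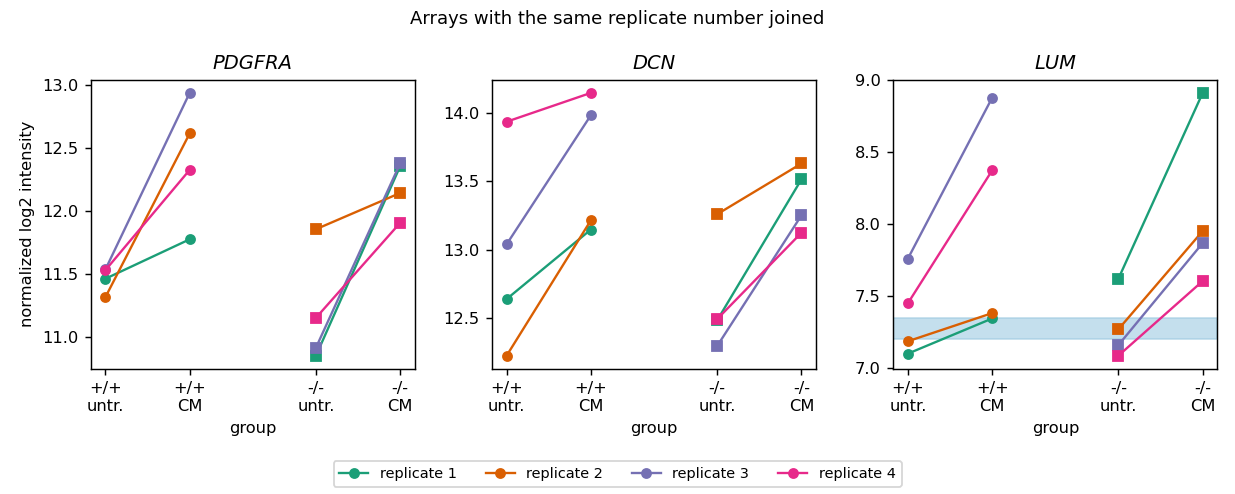
Normalized log2 intensity of PDGFRA, DCN and LUM on untreated and CM arrays, with arrays of the same replicate number joined within a genotype (circles MEKK1+/+, squares MEKK1-/-, a colour per replicate). The blue band in the LUM panel is the background range. All 8 lines rise in each panel, and for DCN in MEKK1+/+ cells the cultures differ more from each other than the lines rise.

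Of 14 other small leucine-rich proteoglycan genes, 7 were at background on every array, and 0 passed the threshold in either genotype, with medians of -0.04 and -0.03. At an unadjusted p under 0.05 by limma there were 0 in MEKK1+/+ and 1 in MEKK1-/- cells. BGN, which encodes biglycan and was above background on 16 arrays with group means of 14.95 to 15.11, differed by -0.08 (limma adjusted p = 0.586) and 0.01 (limma adjusted p = 0.982). These means are among the highest levels on the arrays. Also above background on 16 arrays, OGN differed by -0.27 and -0.34, PODN by -0.27 and -0.29, and PRELP by 0.09 and 0.00. These genes were compared with DCN and LUM by their own values alone, with no test of a difference between genes.

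THY1, a glycolipid-anchored surface protein of fibroblasts, was the steadiest of the 9. It read 14.58, 14.62, 14.74 and 14.64 in untreated MEKK1+/+ cultures, 14.57, 14.81, 14.68 and 14.68 with CM, 14.83, 14.68, 14.70 and 14.73 in untreated MEKK1-/- cultures and 14.76, 14.68, 14.63 and 14.73 with CM. The interval of its response was -0.09 to 0.16 in MEKK1+/+ and -0.16 to 0.09 in MEKK1-/- cells, on the log2 scale. The 4 groups overlapped. The deposited intensities of THY1, from 21155 to 31461, are among the highest on the arrays, whose brightest genes read 37313 to 52477, and on the values as deposited the MEKK1+/+ difference was -0.25, where the median gene fell by 0.28. Whether the range of the arrays limits differences at such levels, here and for BGN, was not tested.

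VIM, the main intermediate filament of mesenchymal cells, had its groups overlapping throughout. It read 13.29, 13.44, 13.29 and 13.22 untreated and 13.21, 12.51, 13.38 and 13.21 with CM in MEKK1+/+ cultures. The one low value, replicate 2 with CM, set the group mean of 13.08 ± 0.39 (SD, n = 4), and without that array the difference was -0.04 in place of -0.23. As deposited, it was -0.60. The MEKK1-/- values were 13.51, 13.15, 13.41 and 13.32 untreated and 13.11, 13.31, 13.38 and 13.41 with CM, a difference of -0.04 (95% interval -0.36 to 0.27). Of 10 other intermediate filament genes and their partners, 0 passed the threshold in either genotype, with 1 in each at an unadjusted p under 0.05 by limma.

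S100A4, a small calcium-binding protein also called fibroblast-specific protein, read 11.10, 10.81, 10.95 and 11.34 untreated and 11.18, 11.62, 10.97 and 11.56 with CM in MEKK1+/+ cultures. In MEKK1-/- cultures it read 11.21, 11.50, 11.37 and 11.62 untreated and 10.80, 11.77, 11.43 and 11.75 with CM. Groups overlapped throughout, with differences of 0.28 (95% interval -0.15 to 0.71) and 0.01 (-0.42 to 0.43). Of 14 other S100 genes 1 rose, where 2.27% of all genes did: S100A10, the partner of annexin A2, rose by 0.63 in MEKK1+/+ cells (SE 0.13; limma adjusted p = 0.0111), where its groups did not overlap. That call ended with arrays scaled to the same median and on the values as deposited, where the difference was 0.20 (limma adjusted p = 0.452). In MEKK1-/- cells its difference was 0.42 (SE 0.13; limma adjusted p = 0.0844), again without overlap, and it passed with the replicate block within genotype (limma adjusted p = 0.046).

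FAP encodes a membrane-bound serine protease of activated fibroblasts, and its differences with CM were 0.02 (95% interval -0.62 to 0.65) in MEKK1+/+ and -0.05 (-0.68 to 0.59) in MEKK1-/- cells. Its levels in MEKK1+/+ cultures were 8.63, 9.75, 8.65 and 8.31 untreated and 8.89, 9.68, 8.60 and 8.23 with CM, so that replicate 2 stood about a unit above the rest under both treatments. In MEKK1-/- cultures they were 9.75, 9.12, 9.53 and 9.53 untreated and 9.56, 9.17, 9.42 and 9.59 with CM. Of 8 relatives of FAP among the prolyl oligopeptidases, 1 fell in each genotype, where 2.75% and 2.51% of all genes did. This was DPP9, which encodes a cytosolic dipeptidyl peptidase and fell by 0.61 in MEKK1+/+ cells (SE 0.07; limma adjusted p = 0.000245) and by 0.58 in MEKK1-/- cells (SE 0.07; limma adjusted p = 0.00033), without overlap. On the values as deposited the MEKK1-/- call ended (limma adjusted p = 0.382).

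POSTN encodes periostin, a matricellular protein, and stood at background or just above it. It read 7.46, 7.39, 7.49 and 7.48 untreated and 7.19, 7.37, 7.56 and 7.39 with CM in MEKK1+/+ cultures. On the MEKK1-/- arrays it was at 7.24, 7.30, 7.19 and 7.37 untreated and 6.97, 7.13, 7.64 and 7.41 with CM. It was above background on 4 and 3 of 4 arrays in MEKK1+/+ and on 2 of 4 arrays in both MEKK1-/- groups. The differences with CM, -0.08 and 0.01, concern levels so close to background that a change in the transcript could have gone undetected. Of 20 other adhesive and matricellular glycoprotein genes, 0 passed in either genotype, with 1 and 2 at an unadjusted p under 0.05 by limma in MEKK1+/+ and MEKK1-/- cells.

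**Figure D4:**
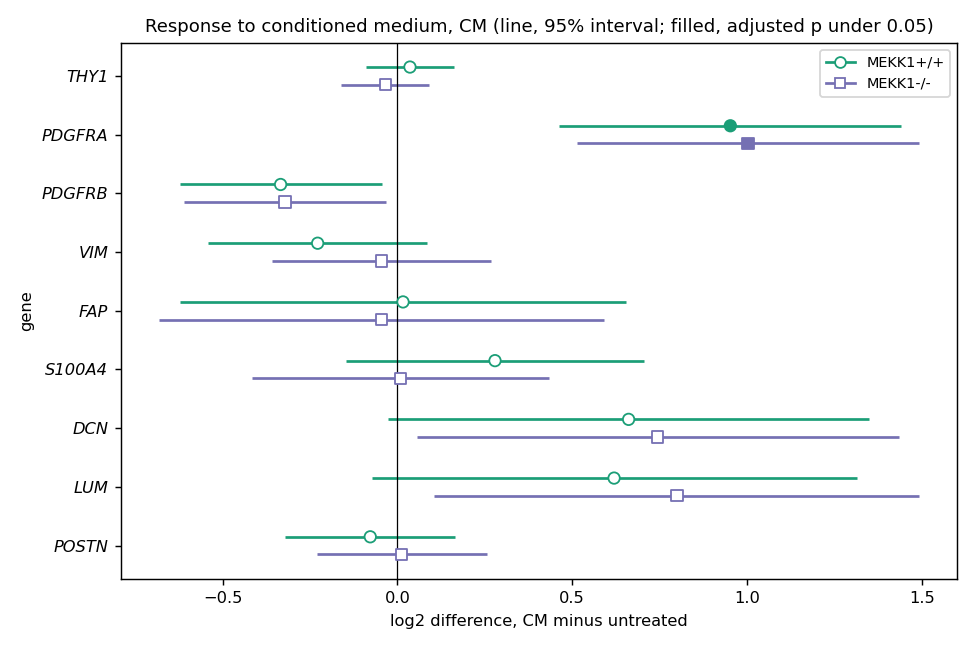
Difference in normalized log2 intensity between CM and untreated cultures for the 9 fibroblast genes, with 95% intervals from limma, 4 arrays against 4, in MEKK1+/+ (circles) and MEKK1-/- cultures (squares). Filled symbols mark an adjusted p under 0.05. PDGFRA is filled in both genotypes, and for each gene the intervals of the genotypes overlap.

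The response of the 9 genes to CM did not differ detectably between genotypes. In the interaction of genotype with CM 0 of 9 genes passed, as did 0 of all 18132 genes (0%). With limma's unadjusted p under 0.05 as the criterion there were 0 of the 9, where 2.61% of all genes lay under it. For PDGFRA the response was larger by 0.05 in MEKK1-/- cells (95% interval -0.64 to 0.74). The widest interaction was that of S100A4, at -0.27 (95% interval -0.87 to 0.33).

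The next comparison set MEKK1-/- against MEKK1+/+ cultures under the same treatment. None of the 9 fibroblast genes passed the threshold, untreated or with CM. Among all genes 0% passed in untreated cells and 0.00552%, a single gene, with CM. At an unadjusted p under 0.05 by limma there were 2 of the 9 genes in untreated cells, PDGFRB and FAP, where 9.27% of all genes lay under it, and 1 with CM, PDGFRB, where 8.09% did.

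PDGFRB was higher on average in MEKK1-/- cultures, by 0.37 untreated (SE 0.14; limma adjusted p = 0.498) and by 0.38 with CM (SE 0.14; limma adjusted p = 0.538). The highest PDGFRB level was that of untreated MEKK1-/- cultures, 11.79 ± 0.21 (SD, n = 4). MEKK1-/- cultures with CM at 11.46 ± 0.19 and untreated MEKK1+/+ cultures at 11.42 ± 0.21 were next and could not be told apart within their spread, and MEKK1+/+ cultures with CM were lowest at 11.09 ± 0.22. For PDGFRA the order was MEKK1+/+ with CM at 12.41 ± 0.49, MEKK1-/- with CM at 12.20 ± 0.22, untreated MEKK1+/+ at 11.46 ± 0.10 and untreated MEKK1-/- at 11.19 ± 0.46, and the genotypes did not differ beyond the spread of cultures under either treatment.

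FAP had a mean of 9.48 ± 0.27 in untreated MEKK1-/- against 8.84 ± 0.63 in untreated MEKK1+/+ cultures (SD, n = 4; difference 0.65, limma adjusted p = 0.539). With CM the means were 9.44 ± 0.19 and 8.85 ± 0.61 (difference 0.59, limma adjusted p = 0.633). MEKK1+/+ replicate 2 reached the MEKK1-/- levels in both cases, and the groups overlapped. S100A4 means were 0.38 and 0.11 higher in MEKK1-/- cultures, and DCN means were 0.33 and 0.24 lower, all with overlapping groups and adjusted p-values by limma of 0.574 or more.

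POSTN was the one gene whose genotypes did not overlap, in untreated cells alone: 7.46 ± 0.05 in MEKK1+/+ against 7.28 ± 0.08 in MEKK1-/- cultures (SD, n = 4; difference -0.18, limma adjusted p = 0.637; exact permutation p = 0.0286, the smallest it can give). Such a lack of overlap was seen for 4.61% of all genes in untreated cells and 4.17% with CM. THY1, VIM and LUM differed between genotypes by 0.22 or less under both treatments.

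**Figure D5:**
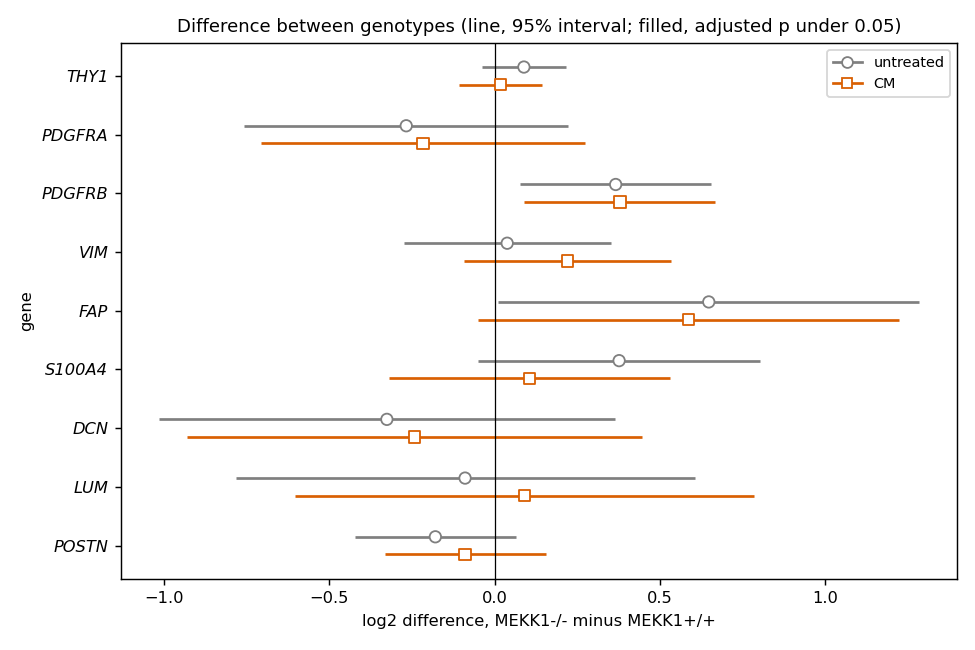
Difference in normalized log2 intensity between MEKK1-/- and MEKK1+/+ cultures for the 9 fibroblast genes, with 95% intervals from limma, 4 arrays against 4, untreated (grey circles) and with CM (orange squares). Filled symbols would mark an adjusted p under 0.05. No symbol is filled, and FAP lies furthest to the right under both treatments.

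Genes of other cell types were measured beside the fibroblast genes. The macrophage sum was lower by median in MEKK1-/- cultures, although the ranges of the genotypes overlapped. The summed intensity of 22 macrophage genes had medians of 69139 and 69664 in untreated and CM MEKK1+/+ cultures, with ranges of 34285 to 86962 and 29186 to 80497, against 26307 and 28841 in MEKK1-/- cultures, with ranges of 14590 to 71098 and 15272 to 61579. The list's median difference between genotypes was -0.65 untreated and -0.60 with CM on the log2 scale, with 0 of 22 genes past the threshold in either. At an unadjusted p under 0.05 by limma there were 9 and 7 of the 22, where 9.27% and 8.09% of all genes lay under it. CD14 was 2.05 lower (limma adjusted p = 0.498), CD68 0.87 lower (limma adjusted p = 0.51) and CSF1R 0.82 lower (limma adjusted p = 0.489) in untreated MEKK1-/- cultures, and PTPRC was at background on all 16 arrays. The part of these cells in the differences of PDGFRB and FAP between genotypes was not tested. Between CM and untreated cultures the median difference of the macrophage list was -0.04 in MEKK1+/+ and -0.02 in MEKK1-/- cells.

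Both MEKK1-/- replicate 1 arrays also carried epithelial signal, with summed intensities of 11 epithelial genes of 11839 untreated and 10702 with CM, where the medians of the 4 groups were 1546 to 2106. The pericyte and smooth muscle sum of 9 genes had medians of 7036 and 5937 in MEKK1+/+ and 11216 and 9038 in MEKK1-/- cultures. All were above the background sum of 1349 to 1406. Of the 9 genes 4 were above background on every array and 3 on none, with the pericyte gene RGS5 among the latter. The endothelial sum of 11 genes had medians of 1673 and 1713 in untreated and CM MEKK1+/+ cultures. In MEKK1-/- cultures they were 1989 and 2075, with highest arrays at 3126 and 3075, beside a background sum of 1649 to 1718. Of the 11 genes 9 were higher in MEKK1-/- cultures under both treatments, with list medians of 0.27 untreated and 0.22 with CM. By limma 0 passed, and 4 and 3 had an unadjusted p under 0.05, where 9.27% and 8.09% of all genes did. PECAM1 and CDH5 were above background on 1 array in each MEKK1-/- group. Fat cell and lymphocyte genes stood at or below their background sums in all 4 groups by median, with ADIPOQ at background on every array. Without both replicate 1 arrays, a choice made after seeing the data, the PDGFRA response in MEKK1-/- cells was 0.83 (limma adjusted p = 0.104) in place of 1.00, and 0 of the 9 genes passed there.

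Genes that mark or specify mesenchymal cells were examined beside the 9. Of 21 mesenchymal transcription factor genes, 3 fell with CM in MEKK1+/+ cells and 4 in MEKK1-/- cells, where 2.75% and 2.51% of all genes fell, and 0 rose. The medians of the list were -0.12 and -0.15. The homeobox gene MEOX2 fell by 0.58 (limma adjusted p = 0.0285) and by 0.55 (limma adjusted p = 0.0388), although in MEKK1-/- cells its groups overlapped. The forkhead gene FOXC1 fell by 0.82 in MEKK1+/+ cells (limma adjusted p = 0.0303), and its difference in MEKK1-/- cells was -0.72 (limma adjusted p = 0.0574, and 0.0476 with the replicate block within genotype). HIC1, a zinc finger repressor, fell by 0.76 in MEKK1-/- cells (limma adjusted p = 0.00591), and its difference in MEKK1+/+ cells was -0.51 (limma adjusted p = 0.0535). The remaining calls, named after their values were seen, were TWIST1, which fell by 0.36 (limma adjusted p = 0.0271) and by 0.42 (limma adjusted p = 0.0116), and OSR1, which fell by 0.58 in MEKK1-/- cells (limma adjusted p = 0.0299). On the values as deposited all of these calls in MEKK1-/- cells and that of TWIST1 in MEKK1+/+ cells ended, with a TWIST1 difference of -0.78 (limma adjusted p = 0.0573) in the latter. With arrays scaled to the same median the calls of TWIST1 in both genotypes and of MEOX2 in MEKK1-/- cells ended, and with the 2 compared groups fitted alone those of FOXC1 and TWIST1 in MEKK1+/+ and of MEOX2 in MEKK1-/- cells. Those of TWIST1 in MEKK1+/+ cells and MEOX2 in MEKK1-/- cells were also lost with eBayes options trend and robust and with z-scores, respectively, and that of OSR1 without both replicate 1 arrays (difference -0.48, limma adjusted p = 0.117). In MEKK1+/+ cells the calls also ended without untreated replicate 1, 2 or 3 or CM replicate 1, 2 or 4 for MEOX2, without untreated replicate 2 or 3 or CM replicate 2 or 4 for FOXC1, and without untreated replicate 1 or 2 or CM replicate 1 or 4 for TWIST1. In MEKK1-/- cells that of OSR1 ended without untreated replicate 1 or 3 or CM replicate 3 or 4, and that of MEOX2 without any MEKK1-/- array but untreated replicate 1, and without MEKK1+/+ untreated replicate 3 or CM replicate 1. Among these omissions the differences closest to 0 were -0.51 and -0.45 for MEOX2 in MEKK1+/+ and MEKK1-/- cells, -0.68 for FOXC1, -0.31 for TWIST1 and -0.48 for OSR1.

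Of 18 other surface and subset markers of fibroblasts 0 passed in either genotype, with 3 and 4 at an unadjusted p under 0.05 by limma. Among the cell type lists, 1 of 9 pericyte and smooth muscle genes rose in MEKK1+/+ cells, where 2.27% of all genes did. This was NOTCH3, which rose by 0.85 (limma adjusted p = 0.0195). Its call ended on the values as deposited, at 0.50 (limma adjusted p = 0.162), and without untreated replicate 3 or CM replicate 2 or 4, where the difference was 0.70 to 0.83. Its MEKK1-/- difference was 0.70 (limma adjusted p = 0.0527, and 0.00395 with the replicate block within genotype). In MEKK1-/- cells 1 of 9 lymphocyte genes rose, where 2.18% of all genes did. This was LCK, which rose by 0.44 (limma adjusted p = 0.0188), and its call ended on the values as deposited (limma adjusted p = 0.836) and without untreated replicate 1 or CM replicate 3 or 4, where the difference was 0.37 to 0.41. Of the 9 lymphocyte genes 7 were above background on no array and 0 on every array. LCK therefore did not exceed background on every array. NOTCH3 and LCK were both named after their values were seen. Between genotypes 0 genes of any of these lists passed, untreated or with CM, nor did any in the interaction.

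Each gene was last set against the 6923 genes above background on every array, itself left out, to find those whose levels ran most like its own over the 16 arrays. The arrays share groups, replicate numbers and scaling, so these are descriptions, with no p. DCN ran most like LOC547343, an unnamed locus, with Pearson's r of 0.97, and like GP38, an older symbol of Pdpn, with r of 0.93. GP38, which encodes the surface protein podoplanin, was 0.75 (limma adjusted p = 0.174) and 1.01 (limma adjusted p = 0.0574, and 0.00186 with the replicate block within genotype) higher with CM. PDGFRA ran most like APBB1IP (r = 0.94) and GNB5 (r = 0.93), and PDGFRB like BCAT1 (r = 0.93) and SUV39H1 (r = 0.92).

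FAP ran most like NPM3 (r = 0.95) and NPM3-PS1 (r = 0.94), which are near-identical copies that a probe may not tell apart. For VIM the closest were ERCC3 (r = 0.90, Spearman's rho 0.50) and GNB1 (r = 0.86, rho 0.39), where the gap between r and rho goes with the single low VIM array. THY1 was closest to STRN4 (r = 0.82) and PAF1 (r = 0.78), S100A4 to APOA1BP (r = 0.82) and SERF2 (r = 0.79), LUM to AA407659 (r = 0.88) and FLT1 (r = 0.85), and POSTN to PDIA3 (r = 0.81) and GTF2E1 (r = 0.78). None of the 9 genes was among the 2 closest to another of them. LUM and POSTN could not be, since they were not above background on every array and so were not searched.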

How the data were processed

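RNA from 16 cultures was hybridized to 1 Illumina array each. The deposited values are linear intensities, 1 for each gene symbol on each array, which the labels call normalized by a core facility; the method, the background treatment and the joining of probes are not given in the sources used here, and array medians ran from 114 to 170.1. Depth has no meaning for arrays, and their number limits the precision.

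Log2 values were quantile normalized between arrays, because array medians differ, and a model of the 4 groups was fitted in limma (version 3.58.1, under R 4.3.3; lmFit, then eBayes; 12 residual degrees of freedom). Benjamini-Hochberg adjustment ran over all 18132 genes, and an adjusted p under 0.05 was a call. For each fibroblast gene an exact permutation test, 2-sided and with 4 arrays against 4, was added. The fit was tested on simulated data. The methods' z-score normalization and z-tests were run as alternatives. No array was left out and no columns were identical.

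Groups came from the labels. Beside the fibroblast genes, which are all named, the text names up to 3 called genes per related list, the 2 genes most alike for each, MAP3K1 and fixed markers of other cells. The members and lists were chosen with earlier results of these data known. Same-numbered arrays were checked as pairs by correlating their deviations from group means across genes: in MEKK1-/- cells r was 0.51, 0.40, 0.22 and 0.25, above 0.1 for each, and in MEKK1+/+ cells -0.04, 0.48, 0.12 and 0.58, so only MEKK1-/- numbers were taken as pairs. The block within genotype was nevertheless fitted to both genotypes at once, with a shared estimate of spread. Promoter sequences are RefSeq's on GRCm38.p6. Other alternatives were the values as deposited, median scaling, a filter on genes above background on 4 or more arrays, a pseudocount of 16, fits of the 2 compared groups alone, array weights, eBayes options trend and robust, replicate blocks and each array left out.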

Additional observations from a re-analysis of the deposited data

How the results depend on the processing

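Of the values for single fibroblast genes under alternatives other than single arrays left out, 462 kept their direction and side of the threshold, 40 changed sign, 6 newly passed and 5 no longer passed; with each array left out, these were 659, 51, 0 and 10. The changes of sign concern differences that did not pass the threshold, and their cause was not tested. The number of the 9 genes past the threshold for CM in MEKK1+/+ cells was 1, and it was 0 as deposited, 0 scaled to the same median, 3 with a replicate block within genotype and 0 to 1 with single arrays left out. For CM in MEKK1-/- cells it was 1, and it was 0 as deposited, 0 scaled to the same median, 2 by the methods' z-test, 3 with that block, 0 without both arrays with epithelial signal and 0 to 1 with single arrays left out. By the methods' z-test 1 gene, POSTN (adjusted p = 0.0014), passed between untreated genotypes, where the main count was 0. Of all 18132 genes 817 passed that z-test in the same comparison. Over all genes, counts in MEKK1+/+ and MEKK1-/- cells were 909 and 851, against 795 and 45 as deposited, 881 and 463 scaled to the same median, and 1916 and 2047 by the z-test. As deposited, 32 genes rose and 763 fell in MEKK1+/+ cells, in place of 411 and 498.

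A replicate block over all numbers, as a pairing, left the count at 1 in both genotypes and changed no call of the 9 genes (PDGFRA adjusted p = 0.0311 and 0.0252). The numbers of MEKK1+/+ arrays did not pair by the criterion, since 1 correlation was -0.04; in each genotype 2 of 4 numbers correlated best with themselves, a hint from the data and not the design. In MEKK1+/+ cells the block within genotype gave DCN an adjusted p of 0.0178 and LUM of 0.0468, and moved the count over all genes from 909 to 1481, and from 851 to 1438 in MEKK1-/- cells. Beside DCN and LUM in both genotypes, no call of the 9 genes changed with it.

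Signs turned as follows, on the log2 scale. As deposited, for CM in MEKK1+/+ cells THY1 was -0.25, FAP -0.38, S100A4 -0.14 and LCK -0.075, in MEKK1-/- cells S100A4 -0.071, between untreated genotypes THY1 -0.010 and VIM -0.21, between genotypes with CM POSTN 0.20, and in the interaction THY1 0.17, FAP 0.30 and S100A4 0.073. Scaled to the same median, for CM FAP was -0.095 in MEKK1+/+ and S100A4 -0.073 in MEKK1-/- cells, between untreated genotypes THY1 -0.031 and VIM -0.23, with CM THY1 -0.15, VIM -0.025, S100A4 -0.14 and LUM -0.0092, and in the interaction FAP 0.0084. With array weights, for CM THY1 was -0.011 and FAP -0.018 in MEKK1+/+ and FAP 0.0011 in MEKK1-/- cells, between genotypes with CM LUM -0.040, and in the interaction PDGFRB -0.037 and FAP 0.019. With z-scores over all genes, and so with the z-test, in SD units, FAP was -0.020 in MEKK1+/+ and THY1 0.026 in MEKK1-/- cells, and PDGFRB -0.0095 in the interaction. Without both arrays with epithelial signal, for CM in MEKK1-/- cells VIM was 0.076 and FAP 0.0047, between untreated genotypes VIM -0.018, with CM THY1 -0.0017, LUM -0.19 and POSTN 0.016, and in the interaction PDGFRA -0.12, PDGFRB -0.060 and DCN -0.0070.

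With single arrays left out, ranges that crossed 0 for CM were -0.0056 to 0.076 (THY1) and -0.26 to 0.32 (FAP) in MEKK1+/+ cells, and -0.11 to 0.021 (VIM), -0.17 to 0.045 (FAP), -0.10 to 0.22 (S100A4) and -0.10 to 0.12 (POSTN) in MEKK1-/- cells. Between genotypes they were -0.018 to 0.10 (VIM) and -0.20 to 0.039 (LUM) untreated, and -0.022 to 0.059 (THY1), -0.016 to 0.32 (S100A4), -0.19 to 0.38 (LUM) and -0.21 to 0.016 (POSTN) with CM. In the interaction they were -0.17 to 0.27 (PDGFRA), -0.084 to 0.11 (PDGFRB), -0.0073 to 0.29 (VIM), -0.37 to 0.21 (FAP), -0.24 to 0.33 (DCN), -0.096 to 0.47 (LUM) and -0.027 to 0.20 (POSTN).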

Other observations

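Neighbours of the fibroblast genes on the chromosome, up to 2 genes away on each side, were taken by position alone in the RefSeq gene table. Some of them had no row among the values. CHIC2 and BTG1 are detailed because they passed the threshold in at least 1 genotype, and the other neighbours with a row did not. Among all genes 5.01% passed with CM in MEKK1+/+ and 4.69% in MEKK1-/- cells. CHIC2, which lies 2 genes from PDGFRA, rose with CM by 0.42 on the log2 scale in MEKK1+/+ (limma adjusted p = 0.0113) and by 0.53 in MEKK1-/- cells (limma adjusted p = 0.00277); on the values as deposited the MEKK1+/+ difference was 0.01 (limma adjusted p = 0.977) and the MEKK1-/- call ended (limma adjusted p = 0.59). With arrays scaled to the same median the CHIC2 call ended in MEKK1+/+ cells. GSX2, next to PDGFRA, and KDR, 2 genes away on the other side, were at background on every array. DCN and LUM are adjacent, and the next genes in the row, KERA and EPYC, which encode proteoglycans of the same family, were at background on every array. BTG1, an antiproliferative gene 2 genes from DCN, rose by 0.79 in MEKK1-/- cells (limma adjusted p = 0.0224), and its difference in MEKK1+/+ cells was 0.66 (limma adjusted p = 0.0517). The BTG1 call ended on the values as deposited (limma adjusted p = 0.626), with arrays scaled to the same median, without both replicate 1 arrays (limma adjusted p = 0.0581), and without untreated replicate 1, 3 or 4 or CM replicate 2 or 3 of MEKK1-/- cultures, where the difference was 0.64 to 0.81. CSF1R, the macrophage growth factor receptor, is next to PDGFRB, and its differences with CM were -0.29 and -0.02. DPP4, a relative of FAP that lies 2 genes from it, was above background on 7 of 16 arrays.

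FAP and DCN were negatively correlated among cultures of a group. In 4 of 4 groups the array with the lowest FAP had the highest DCN on the normalized scale, and in 3 of 4 groups on the values as deposited. The array with the highest FAP had the lowest DCN in 2 of 4 groups on the normalized scale and in 1 of 4 as deposited. With the group means removed, r between the 2 genes over 16 arrays was -0.80. Both genes were chosen from 36 pairs after the values were seen, and the arrays share groups, replicate numbers and scaling, so this is a description with no p.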
